A study of Mus musculus with 32 samples.

Results

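The medulla of sham-operated mice without the cholecystokinin B receptor was compared with the medulla of sham-operated control mice. The comparison holds every array titled as knockout sham medulla and every array titled as control sham medulla, which are 8 of the 32 arrays of the study, 4 per genotype. The study measured messenger RNA on short-oligonucleotide expression arrays in medulla and midbrain of mutant mice deficient in Cckbr (here KO mice) and of control mice. Mice of either genotype were either sham-operated or given a chronic constriction injury (CCI), a ligation of the sciatic nerve used as a model of neuropathic pain, and the design counts the 4 mice of a group as separate animals. KO sham mice carry the Cckbr deficiency and had the sham operation, and control sham mice had the same operation without that deficiency, so no animal of the comparison had a nerve injury. The allele, the genetic background of either genotype, sex, age and the time after the operation are not given in the labels. Each value is the intensity of a probe set on a linear scale that runs below 0, and 22626 probe sets were tested. Differences are log2(KO) minus log2(control) after 16 was added to each intensity, a scale that understates the change of dim genes.

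Cholecystokinin is a neuropeptide that is abundant in brain neurons, and its B receptor, encoded by Cckbr, is the form that predominates there. The receptor couples to Gq proteins, which act through phospholipase C, inositol trisphosphate, calcium release and protein kinase C. In the medulla, neurons of the descending pain control system respond to both opioids and cholecystokinin, and cholecystokinin is known to oppose opioid analgesia there.

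The 8 arrays were alike in brightness, with medians between 91.5 and 99.5 intensity units. Hindbrain genes marked the tissue: Hoxa5 had a median of 556 units over the 8 sham medulla arrays and of 18.7 over the sham midbrain arrays, and Hoxb5 had 359 and -2.07. Hindbrain signal varied between the sham medulla arrays, with Hoxa5 from 261 to 900 units. The summed intensity of 20 hindbrain Hox and medullary genes was 2913, 2670, 2699 and 1567 on KO sham arrays 1 to 4. On control sham arrays 1 to 4 that sum was 2812, 2818, 1427 and 2083. The dopamine transporter gene Slc6a3 had a median of 4.12 in sham medulla and 581 in sham midbrain. KO sham array 3 stood apart. It lay at 60.6 on the first principal component of the 16 medulla arrays (19.5% of the variance), against -9.73 to 2.3 for the others, and 4.58% of its values were at or below 0, against 1.71% to 2.32% on the other sham and CCI arrays. Its cerebellar genes were high. Gabra6, a receptor subunit of cerebellar granule cells, read 113, 51.4, 1080 and 71 units in KO sham mice 1 to 4, against 69.5, 176, 144 and 55.9 in control sham mice 1 to 4. The summed intensity of 14 cerebellar genes was 14652 on KO sham array 3, against 6224 to 7012 on the other KO arrays and 6232 to 8028 on the control arrays. Control sham array 4 stood apart in another tissue, with little signal from choroid plexus, the tissue that secretes cerebrospinal fluid. Ttr, the transthyretin gene of choroid plexus, read 9130, 8670, 6900 and 8940 in KO sham mice, against 7980, 8080, 8900 and 936 in control sham mice. KO array 3 was also low for other choroid plexus genes. Folr1, a folate receptor, read 297, 117, 23.1 and 309 in KO sham mice, against 101, 75.9, 180 and 18.7 in control sham mice. In such bulk tissue, fewer cells of a type and less RNA per cell cannot be told apart. Counts and values that moved most without these arrays are given both ways.

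**Figure D1:**
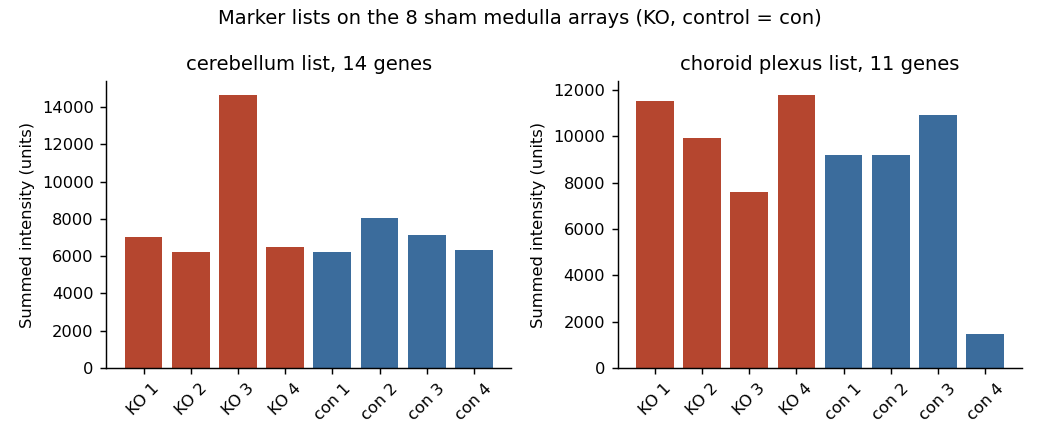
Summed intensity (units) of 14 cerebellar genes (left) and 11 choroid plexus genes (right) on each of the 8 sham medulla arrays, KO in red and control in blue. KO array 3 reaches 14652 in the cerebellar sum, and control array 4 has 1460 in the choroid plexus sum.

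The targeted gene checks the labels. Cckbr (NCBI gene 12426), on the brighter of its probe sets, read 14.7, 5.92, 24.1 and 10.7 units in KO sham mice, against 149, 137, 162 and 162 units in control sham mice. Every KO array was near background and below every control array. The mean was 13.8 ± 7.70 in KO sham mice and 152 ± 11.9 in control sham mice (SD, n = 4 each), a log2 difference of -2.56 (SE 0.16, adjusted p = 1.75e-06, limma with Benjamini-Hochberg adjustment). The KO level is at background, so no fold is given and the difference depends on the value added before the log: it was -3.60 with 1 and -1.49 with 64 in place of 16. The call held with both (adjusted p = 0.000627 and 5.56e-08, limma), and where the probes lie with respect to the deletion is not stated in the labels. The dimmer Cckbr probe set read 19.9, -4.4, -15.8 and 14.6 in KO sham mice, against 26.8, 28.4, 30.5 and 24.5 in control sham mice. Its groups did not overlap either, but its adjusted p was 0.896 (log2 difference -0.92, SE 0.24). Without KO array 3 and control array 4 the brighter probe set gave -2.71 (adjusted p = 1.14e-06, limma).

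Besides Cckbr only 2 genes passed the threshold of an adjusted p under 0.05 in limma, Iqgap1 and Pgap2, which makes 3 probe sets of 22626, or 0.0133%. All 3 genes lie on chromosome 7, which carries 7.06% of the probe sets with a known chromosome. Without adjustment, 863 probe sets (3.81%) had p under 0.05, 412 of them higher (1.82%) and 451 lower (1.99%) in KO mice. With 4 arrays a genotype the median SE of a log2 difference was 0.137, and the number of arrays limits the precision.

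Pgap2 remodels the lipid part of glycosylphosphatidylinositol anchors. Pgap2 (NCBI gene 233575) read 62.1, 57.8, 60.8 and 57.1 units in KO sham mice, against 132, 101, 129 and 118 units in control sham mice. The groups were well apart, and the KO values lay within 5 units of each other. Pgap2 fell to 59.4 ± 2.34 units in KO sham mice, against 120 ± 14 in control sham mice (SD, n = 4 each), 1.81-fold lower (log2 difference -0.85, SE 0.11, adjusted p = 0.00933, limma). Its other probe sets gave -0.59 (adjusted p = 0.0709) and -0.53 (adjusted p = 0.997, limma). All 3 were thus lower in KO mice, and only the first passed.

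Iqgap1 is a scaffold protein of the actin cytoskeleton. Iqgap1 (NCBI gene 29875), on the probe set that passed, read 212, 187, 238 and 255 units in KO sham mice, against 77.9, 80.1, 122 and 86.2 units in control sham mice. The lowest KO array lay above the highest control array. Iqgap1 rose to 223 ± 29.8 units in KO sham mice, against 91.6 ± 20.6 in control sham mice (SD, n = 4 each), 2.26-fold higher (log2 difference 1.18, SE 0.15, adjusted p = 0.00933, limma). The other 4 probe sets of Iqgap1 gave log2 differences of 0.24 to 0.42 and did not pass. The calls of Pgap2 and Iqgap1 depend on single arrays. Without control array 4 both had an adjusted p of 0.0585, without KO array 3 Iqgap1 had 0.0791 and Pgap2 0.0304, and without both arrays Pgap2 had 0.14 (-0.89) and Iqgap1 0.285 (1.12), all by limma. Numbers in the array descriptions, whose meaning is not given, split the arrays into those of replicates 1 and 2 (lower code, control sham 1 with a separate number) and of replicates 3 and 4 (higher code). Within the lower code the log2 difference was -2.69 for Cckbr, -0.84 for Pgap2 and 1.18 for Iqgap1, against -2.42, -0.87 and 1.17 within the higher code. No call passed within a code, where a fit holds 8 arrays (adjusted p from 0.0914 to 0.903, limma).

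The promoters of the 3 genes that passed are printed because they are the whole set of calls, with 250 bases before and 50 after the annotated start, from RefSeq on build GRCm38.p6, 5′ to 3′ on the strand of the gene. Capitals mark matches on either strand to 5 motifs. CACGTG is the core of E-boxes. TGACGTCA is the response element of cyclic AMP signalling. GGGCGG is bound by Sp1. TATAAA lies upstream of many start sites. CCAAT is bound by NF-Y. Pgap2 has 5 listed starts, and the first is shown.
Cckbr, chr7:105425481-105425780, plus strand: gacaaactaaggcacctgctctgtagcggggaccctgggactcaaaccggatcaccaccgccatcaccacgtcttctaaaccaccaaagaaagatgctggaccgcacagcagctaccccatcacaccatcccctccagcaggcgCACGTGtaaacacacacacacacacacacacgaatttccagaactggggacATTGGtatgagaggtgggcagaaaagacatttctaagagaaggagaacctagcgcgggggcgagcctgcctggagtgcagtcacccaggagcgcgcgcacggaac
Pgap2, chr7:102209923-102210222, plus strand: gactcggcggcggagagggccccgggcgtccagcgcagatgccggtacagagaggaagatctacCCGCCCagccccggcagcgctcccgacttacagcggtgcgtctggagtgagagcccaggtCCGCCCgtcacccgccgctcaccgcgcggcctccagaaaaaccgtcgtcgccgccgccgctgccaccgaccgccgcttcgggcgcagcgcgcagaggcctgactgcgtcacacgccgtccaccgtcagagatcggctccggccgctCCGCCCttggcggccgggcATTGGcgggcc
Iqgap1, chr7:80803282-80803581, minus strand: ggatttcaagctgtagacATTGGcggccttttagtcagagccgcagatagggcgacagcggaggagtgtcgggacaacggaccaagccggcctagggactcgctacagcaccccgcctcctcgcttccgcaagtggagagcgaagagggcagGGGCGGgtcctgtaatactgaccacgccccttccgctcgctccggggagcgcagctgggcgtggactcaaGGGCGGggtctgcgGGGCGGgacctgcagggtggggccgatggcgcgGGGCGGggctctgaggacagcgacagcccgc
The Cckbr window held 1 CACGTG and 1 CCAAT match, that of Pgap2 held 3 GGGCGG and 1 CCAAT match, and that of Iqgap1 held 4 GGGCGG and 1 CCAAT match. Of 32544 listed promoters of the same length, 7.17% held the E-box core, 1.8% the cyclic AMP element, 35.9% the Sp1 motif, 13.6% the TATA motif and 37.4% the NF-Y motif. The NF-Y motif was the only motif found in all 3 printed windows. For Pgap2 this depends on the start shown. Of its 5 listed starts 2 held the NF-Y motif, 5 the Sp1 motif, 2 the TATA motif and 1 the cyclic AMP element. These matches describe letters, not binding.

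Below the threshold, genes were ranked by p among those with a mean of at least 50 units in either genotype and with no overlap between the 4 KO and the 4 control arrays. Over all probe sets, 346 (1.53%) had no overlap, 165 (0.729%) with KO above and 181 (0.8%) with KO below, and 4 arrays against 4 cannot give an exact permutation p under 0.0286. The first 12 in each direction are described next, and none of them besides the 3 above passed the adjustment.

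On the lower side Dctn5, a subunit of the dynactin complex that works with dynein, read 239, 200, 377 and 344 units in KO sham mice, against 714, 671, 730 and 664 units in control sham mice. The mean was 290 ± 84.1 in KO and 695 ± 32.4 in control mice (SD, n = 4 each), a log2 difference of -1.27 (SE 0.21, adjusted p = 0.0889, limma). The highest KO array lay well below the lowest control array. Myo7a, an actin motor needed in hair cells of the inner ear, read 23.6, 38.7, 9.02 and 41.9 in KO sham mice, against 71.1, 64.3, 94.9 and 70.4 in control sham mice (log2 difference -1.09, SE 0.20, adjusted p = 0.192, limma). Syt17, a member of the synaptotagmin family of vesicle proteins, read 29.7, 30.9, 15 and 26.6 in KO sham mice, against 56, 53.5, 86.5 and 37 in control sham mice (-0.80, SE 0.19), and its other probe set gave -0.27. Cavin3, a coat protein of caveolae and the measured gene next to Cckbr, read 140, 160, 144 and 127 in KO sham mice, against 177, 167, 212 and 187 in control sham mice (-0.34, SE 0.08). All 4 of these genes lie on chromosome 7.

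The other names on the lower side included Spon1, Klk1b8, Dgat2 and Hdgfl3 on chromosome 7. Spon1, a matrix protein of the floor plate, read 51.1, 68, 66.1 and 97.2 in KO sham mice, against 125, 104, 133 and 115 in control sham mice (log2 difference -0.67, SE 0.15, adjusted p = 0.694, limma), and its other probe set gave -0.08. Dmp1, a matrix protein best known from bone and dentin, read 38.6, 42.1, 25 and 44 in KO sham mice, against 59.9, 63.7, 59.2 and 55 in control sham mice (-0.52, SE 0.10). Klk1b8, a kallikrein-related peptidase, read 38.7, 31.6, 12 and 35.5 in KO sham mice, against 59.9, 62.5, 44 and 60.3 in control sham mice (-0.71, SE 0.16). For Klk1b8 the KO 3 array was far below the others of its genotype. Dgat2, which makes triglycerides, read 191, 228, 159 and 179 in KO sham mice, against 268, 233, 242 and 245 in control sham mice (-0.36, SE 0.09), and its other probe set gave -0.24 (SE 0.07). Hdgfl3, a relative of hepatoma-derived growth factor, read 432, 399, 328 and 293 in KO sham mice, against 489, 675, 622 and 713 in control sham mice (-0.76, SE 0.155). The other probe sets of Hdgfl3 gave 0.04 and -0.03, so the gene differed on 1 of 3. F8a, a gene of the X chromosome, read 84.2, 95.6, 97.7 and 78.2 in KO sham mice, against 163, 122, 121 and 111 in control sham mice (-0.47, SE 0.11).

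**Figure D2:**
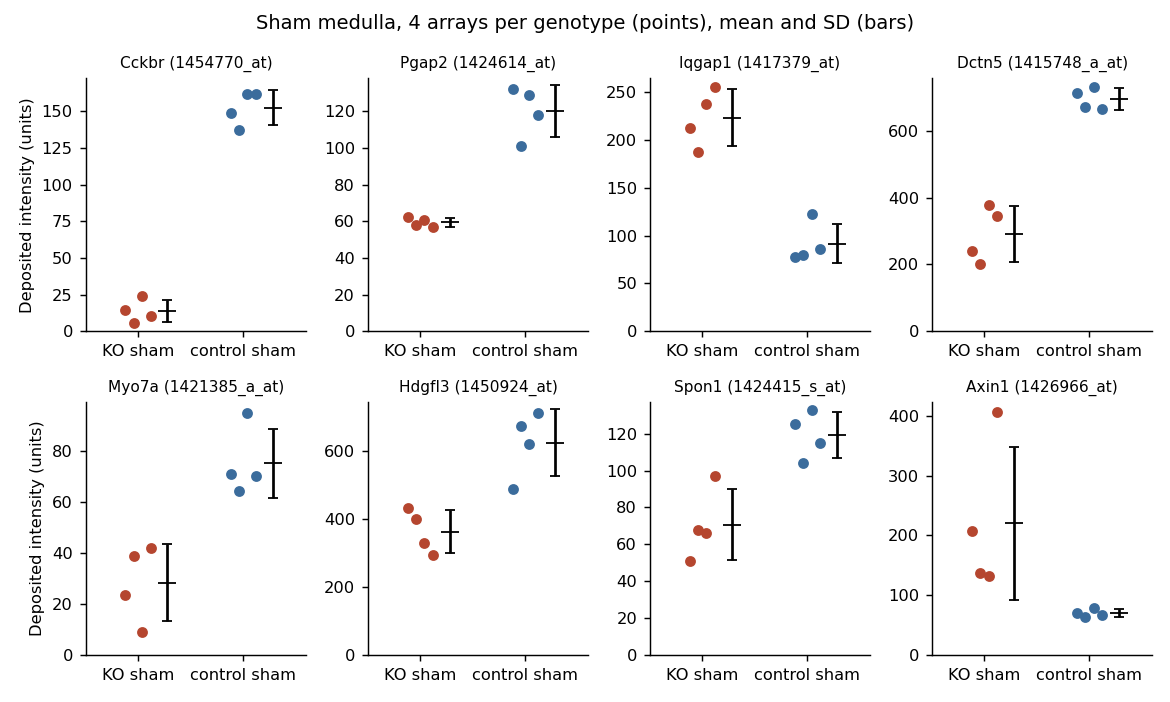
Deposited intensity (units, linear axis starting at 0) of 8 probe sets in KO sham (red, left) and control sham medulla (blue, right), with a point per array and the mean and SD beside it. Pgap2 reads 57.1 to 62.1 in KO and 101 to 132 in control mice, and 1 KO array reaches 406 for Axin1.

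On the higher side Axin1, a scaffold of the complex that degrades beta-catenin, read 207, 137, 132 and 406 units in KO sham mice, against 69.5, 63.8, 78.8 and 67.1 units in control sham mice. The KO arrays were all higher and spread widely, and the log2 difference was 1.35 (SE 0.25, adjusted p = 0.192, limma). Its second probe set gave -0.04 (SE 0.12), so only 1 of the 2 differed. Without KO array 4 the first gave 1.03, with an adjusted p of 0.037 (limma). Fzd4, a Wnt and norrin receptor of blood vessels, read 272, 242, 162 and 290 in KO sham mice, against 131, 154, 160 and 151 in control sham mice (log2 difference 0.63, SE 0.19). KO array 3 was 2 units above the highest control array there.

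Aass, which starts lysine breakdown, read 63.8, 68.8, 68.5 and 67.2 in KO sham mice, against 52.7, 44.1, 47.7 and 41.7 in control sham mice (log2 difference 0.43, SE 0.09, adjusted p = 0.568, limma). Shmt1, an enzyme of one-carbon metabolism in the cytosol, read 122, 96.3, 147 and 137 in KO sham mice, against 83.1, 74.1, 64.4 and 96.2 in control sham mice (0.58, SE 0.18). The gap between the genotypes was 0.1 units for Shmt1, and its other 3 probe sets gave 0.20, 0.10 and -0.11. Fah, the last enzyme of tyrosine breakdown, read 424, 401, 395 and 443 in KO sham mice, against 374, 323, 368 and 321 in control sham mice (0.25, SE 0.08). Pdia6, a disulfide isomerase of the endoplasmic reticulum, read 464, 394, 386 and 423 in KO sham mice, against 322, 317, 365 and 315 in control sham mice (0.32, SE 0.10).

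The remaining genes on the higher side were Nell2, Prelp, Ap3s2, Arid4b and Heatr6. Nell2, a secreted neuronal glycoprotein, read 80.7, 45, 85.7 and 45.9 in KO sham mice, against 19.9, 26.9, 22.5 and 23.6 in control sham mice (log2 difference 1.01, SE 0.26), and its brighter probe set gave 0.08 (SE 0.27). Prelp, a matrix proteoglycan, read 82.4, 89, 98.4 and 97.8 in KO sham mice, against 70.8, 59.4, 66 and 53.5 in control sham mice (0.47, SE 0.12), and its other probe set gave 0.18 with overlapping groups. Ap3s2, a subunit of an adaptor complex for vesicle sorting, gave 0.51 (SE 0.15), with other probe sets at -0.17 and 0.02. Arid4b, a chromatin protein, gave 0.38 (SE 0.11), with its other 4 probe sets between -0.11 and 0.16, and Heatr6 gave 0.34 (SE 0.11). For Axin1, Nell2, Ap3s2 and Arid4b, then, other probe sets of the gene did not show the difference.

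The mice with CCI are other animals of the same genotypes, so their intensities are separate from those of the sham mice. The p-values of the 24 names are not separate, because limma used 1 estimate of the spread for both contrasts. Over all probe sets 551 (2.44%) had an unadjusted p under 0.05 there, and 1 (0.00442%), Cckbr, passed the adjustment. Of the 12 lower names 10 were also lower in CCI medulla, 9 with an unadjusted p under 0.05 (1.28% of all probe sets were lower at that p), and 9 with no overlap (1.06% of all). Of the 12 higher names 11 were also higher, 3 with an unadjusted p under 0.05 (1.15% of all). The split ran by chromosome. Among the 14 names on chromosome 7, which include the targeted Cckbr, 13 had the same sign and 11 an unadjusted p under 0.05 in CCI medulla. Among the 10 elsewhere 8 had the same sign and 1 an unadjusted p under 0.05, which was Axin1 (1.14, SE 0.25). Dctn5 read 439, 208, 381 and 276 units in KO CCI mice, against 774, 786, 655 and 745 units in control CCI mice. Dmp1, by contrast, read 71.1, 70, 59.3 and 74.1 in KO CCI mice, against 67.7, 60.3, 59.6 and 59.5 in control CCI mice, and these groups overlapped. Aass read 61.1, 62.8, 56.6 and 54.5 in KO CCI mice, against 60.9, 60.3, 53.7 and 49.3 in control CCI mice. The interaction of genotype and operation was tested in limma, and 0 probe sets passed, with 604 (2.67%) at an unadjusted p under 0.05. So no gene is shown to differ between sham and CCI mice in its genotype difference. The interaction of smallest p among the names was that of Dmp1 (-0.65, SE 0.14, unadjusted p = 0.000309, adjusted p = 1, limma).

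By the study's design the midbrain of the sham mice comes from the same animals, so it is not independent of their medulla. There 13 of the 14 names on chromosome 7 had the same sign, 12 with an unadjusted p under 0.05 (8.47% of all probe sets), against 9 and 1 of the 10 names elsewhere. Myo7a read 17.6, 31.1, 14.5 and 23.1 units in KO sham midbrain, against 85.8, 75.4, 74.8 and 72.2 in control sham midbrain, and it passed there (log2 difference -1.32, adjusted p = 0.0296, limma), as did Iqgap1 (1.10, adjusted p = 0.0347) and Cckbr, 3 probe sets in all (0.0133%). No probe set passed the test of the genotype difference between regions in limma (0 at an adjusted p under 0.05, 1024, or 4.53%, at an unadjusted p under 0.05).

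Chromosome 7 was then described as a whole, because Cckbr lies on it. Of the 10 probe sets of smallest p with a known location, 7 were on chromosome 7, of 50 there were 20 and of 100 there were 31. Chromosome 7 had 103 of 1437 probe sets (7.17%) at an unadjusted p under 0.05, and the other chromosomes had 655 of 18914 (3.46%). In sham medulla the share varied with distance from Cckbr. Among the nearest 25 measured genes on each side it was 14.5% (11 of 76 probe sets, 9 of them lower in KO mice), among genes 26 to 50 it was 4.65%, among genes 51 to 100 it was 13.6%, among the next 100 it was 7.58%, and beyond them it was 4.99%. In sham midbrain it was 13.2% for the nearest 25, 17.3% for genes 51 to 100 and 7.93% for all of chromosome 7, against 8.62% on the other chromosomes. Without KO array 3 and control array 4 the count on chromosome 7 was 93 (6.47%). The count over all probe sets was then 871, against 863 with all arrays. Leaving out other single arrays moved that count more. It was 1112 without KO array 1, 1242 without KO array 2, 1726 without KO array 4 and 680 without control array 1.

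**Figure D3:**
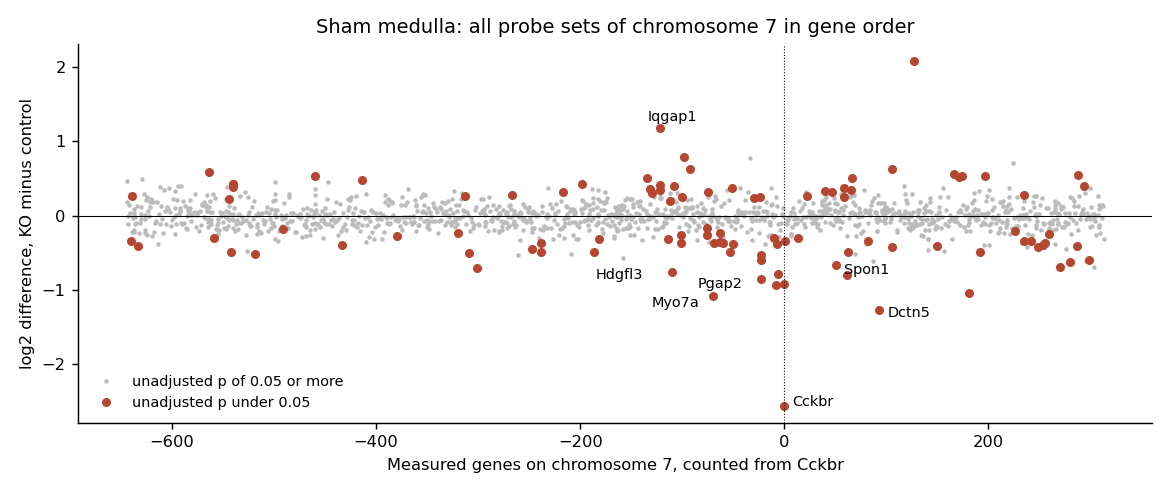
Log2 difference, KO minus control, of each probe set of chromosome 7 in sham medulla (vertical axis) by the rank of its gene from Cckbr (horizontal axis, in measured genes), with red points at an unadjusted p under 0.05. Cckbr stands at -2.56 and Iqgap1 at 1.18, and 9 of the 11 red points within 25 genes of Cckbr are below 0, those of Cckbr itself not counted.

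Among the nearest 25 measured genes on each side, 9 of the 11 probe sets at an unadjusted p under 0.05 were lower in KO mice. Among genes 26 to 50, 3 were higher and 1 lower at that p, and among genes 51 to 100, 9 were higher and 13 lower. Trim30a, an interferon-inducible regulator of innate signalling 6 measured genes away, read 55.3, 84.6, 30.3 and 50.3 units in KO sham mice, against 82.4, 132, 113 and 85.5 units in control sham mice (log2 difference -0.79, SE 0.17, unadjusted p = 0.000386, limma), and its other probe set gave -0.11. KO array 2 lay among the control values. Trim34a, another tripartite motif gene, read 12.4, 23.3, 6.17 and 2.24 in KO sham mice, against 40.3, 32.7, 36 and 31.7 in control sham mice (-0.93, SE 0.24). Coq7, an enzyme of ubiquinone synthesis 62 measured genes away, read 517, 490, 332 and 577 in KO sham mice, against 611, 744, 679 and 628 in control sham mice (-0.49, SE 0.14). The 7 measured genes of the Trim cluster had 2 at an unadjusted p under 0.05, both lower, and a median of -0.02. Without KO array 3 there were 3 at that p, and the median was -0.14 with 6 of 7 lower. A probe set of Trim12a, at background and named after its values were seen, gave -0.39 (unadjusted p = 0.0187, limma), and -0.75 in CCI mice. Trim3, a brain-enriched member, read 349, 379, 515 and 506 in KO sham mice, against 475, 359, 473 and 454 in control sham mice.

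Sham and CCI medulla share no animal, so they were also fitted apart, each on its own 8 arrays. On chromosome 7, 73 probe sets had an unadjusted p under 0.05 in sham mice (2.66% of all probe sets did), and 31 of the 73 also had it in the same direction in CCI mice, which is 42.5% of the sham set and 32.6% of the 95 of the CCI set (4.08% of all probe sets had that p in CCI mice). On the other chromosomes 21 of 452 did, which is 4.65% of the sham set and 2.97% of the 708 of the CCI set. The log2 differences of sham and CCI mice correlated at 0.328 on chromosome 7 without Cckbr (Pearson, n = 1435) and at -0.0101 on the other chromosomes (n = 18914), where probe sets share arrays and are no replicates. The 31 probe sets stood for 26 genes, with 23 probe sets lower and 8 higher in KO mice, and 16 of the genes other than Cckbr lay within 100 measured genes of it. Without KO array 3 and control array 4 there were 24 such probe sets.

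**Figure D4:**
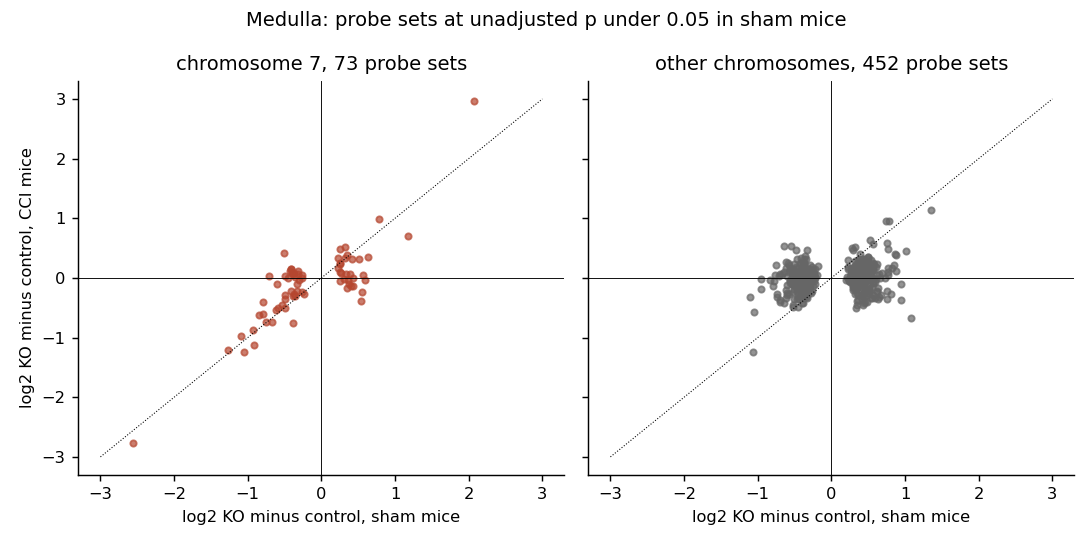
Log2 difference, KO minus control, in CCI medulla (vertical axis) against that in sham medulla (horizontal axis) for probe sets at an unadjusted p under 0.05 in sham mice, 73 on chromosome 7 (left) and 452 on other chromosomes (right). The dotted line marks equal differences. No distance of the points from it was computed. On chromosome 7, 31 of 73 had that p in both in the same direction, Cckbr included, against 21 of 452 on other chromosomes.

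Several of the 31 fell outside the rule for naming and were chosen after their values were seen. Gdpd3, a phosphodiesterase of lysophospholipids, read 186, 194, 169 and -0.127 units in KO sham mice, against -5.79, 74.8, 1.85 and -3.12 units in control sham mice. In CCI medulla it read 102, 266, 105 and 174 units in KO mice, against 15.7, 1.77, 3.96 and 2.28 in control mice. KO sham array 4 and control sham array 2 thus read against their genotypes' other arrays, while the CCI groups did not overlap. Folh1, a glutamate carboxypeptidase that cleaves the peptide transmitter N-acetylaspartylglutamate, read 227, 261, 96.3 and 144 in KO sham mice, against 93.3, 97.5, 92 and 92.1 in control sham mice (log2 difference 0.78, unadjusted p = 0.00581, limma). On Tial1, an RNA-binding protein of stress granules, KO sham mice read 10.5, 11.7, 8.57 and 61.2, against 89.9, 30, 72.6 and 49.2 in control sham mice. KO array 4 was again among the control values.

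The other genes of the cholecystokinin system gave no call. Cck, the peptide precursor, read 472, 400, 470 and 331 units in KO sham mice, against 538, 463, 306 and 362 units in control sham mice. The means were 418 ± 66.9 in KO and 417 ± 104 in control mice (SD, n = 4 each), a log2 difference of 0.02 (SE 0.18). Cckar, the A receptor, was dim at 19.3 ± 2.14 in KO and 24.4 ± 7.98 in control mice (-0.17, SE 0.14), and Gast, the gastrin gene, was at background in both. Without control array 4 Cckar gave -0.31 (SE 0.12), and without both arrays that stood apart it gave -0.36. Downstream of the receptor, none of 19 Gq and calcium signalling genes had an unadjusted p under 0.05, where 3.51% of all genes did (435 of 12393, 1 probe set a gene, 1.45% higher and 2.06% lower), and their median was 0.03 against -0.01 for all genes. Gnaq, the Gq alpha subunit, gave -0.12, Plcb1, a phospholipase C of neurons, gave 0.36, and Prkca, a protein kinase C, gave 0.26.

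The opioid system was measured with 9 genes, and 1 of them, Pdyn, had an unadjusted p under 0.05. Oprm1, the mu opioid receptor, read 25.5, 29.4, 19.2 and 38.8 units in KO sham mice, against 54.2, 42, 31.9 and 33.5 units in control sham mice (log2 difference -0.35, unadjusted p = 0.16, limma). The groups overlapped. Penk, the enkephalin precursor, read 771, 779, 862 and 862 in KO sham mice, against 1220, 841, 711 and 883 in control sham mice (-0.14). Pdyn, the dynorphin precursor, was near background, at 19.6, 6.02, -18.4 and 13.1 in KO sham mice, against 34.9, 23.2, 13 and 27.2 in control sham mice (-0.70, unadjusted p = 0.0327, limma). Without KO array 3 no opioid gene had an unadjusted p under 0.05.

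Of 17 monoaminergic genes 2 had an unadjusted p under 0.05, both lower: Th, the rate-limiting enzyme of catecholamine synthesis, and Htr7, a serotonin receptor. Th read 64, 80.9, 45.7 and 51.4 units in KO sham mice, against 105, 73.5, 91.2 and 70.4 units in control sham mice (log2 difference -0.41, unadjusted p = 0.0461, limma). Dbh, which makes noradrenaline, read 120, 128, 35.3 and 138 in KO sham mice, against 174, 140, 175 and 135 in control sham mice (-0.61, unadjusted p = 0.0529). KO array 3 was the lowest for Th, Dbh and Htr7, and without it 0 of the 17 had an unadjusted p under 0.05. Of 31 neuropeptide and receptor genes and of 26 pain-related ion channels none had it. Tac1, the substance P precursor, gave -0.03, Gal, the galanin gene, gave -0.34, and Scn9a, a sodium channel of nociceptors, gave -0.01. Among GABA and glycine genes the count was 0 of 18, and among glutamate genes it was 1 of 17, Slc1a3, an astrocyte glutamate transporter (0.33), which was highest on KO array 3 at 908 units.

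Innate immune genes had 4 of 29 at an unadjusted p under 0.05 (3.51% of all genes did), 3 higher and 1 lower, with a median of 0.03. Tlr4, the receptor for bacterial lipopolysaccharide, read 31, 46.2, 32 and 38.9 units in KO sham mice, against 22.8, 19.8, 18 and 22 units in control sham mice (log2 difference 0.52, SE 0.12, adjusted p = 0.694, limma). The groups did not overlap on this probe set, and its other probe set, at background, gave -0.05. In CCI medulla the first gave 0.63, and Tlr4 does not lie on chromosome 7. Tlr8, a sensor of single-stranded RNA, gave 0.42, Traf6, a ubiquitin ligase downstream of the receptors, gave 0.33, and Tirap, an adaptor of Tlr4, gave -0.26. Interferon response genes had 0 of 23 at that p, and immediate early genes had 0 of 27.

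Circadian clock genes had the most of the 29 lists, 6 of 20 at an unadjusted p under 0.05 (3.51% of all genes did). The count was 4 without KO array 3, 4 without control array 4 and 2 without both. Dbp, a clock output factor on chromosome 7, read 487, 455, 550 and 469 units in KO sham mice, against 607, 672, 660 and 613 units in control sham mice (log2 difference -0.37, SE 0.09, adjusted p = 0.762, limma), and its other probe set gave -0.49 (SE 0.12). Neither Dbp probe set overlapped between genotypes. Nr1d1, a repressor in the clock loop, gave -0.36, Per1 gave -0.30 and Per2, a partner of the cryptochromes like Per1, gave -0.43. Arntl, the activator that pairs with Clock and likewise on chromosome 7, read 88.8, 116, 134 and 102 in KO sham mice, against 80.7, 77.4, 93 and 89 in control sham mice (0.31), and Clock gave 0.21. Among these named genes the activators were on the higher side and 4 of their target genes on the lower side. Over the whole list of 20 genes 9 were higher and 11 lower, with a median of -0.05. The labels do not state the hour at which the tissue was taken. In CCI medulla Dbp gave -0.27, Nr1d1 -0.15 and Arntl 0.18.

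Glucocorticoid-responsive genes had 5 of 19 at an unadjusted p under 0.05, where 3.51% of all genes did. Fkbp5, a co-chaperone of the glucocorticoid receptor, read 103, 111, 76.7 and 100 units in KO sham mice, against 141, 124, 115 and 121 units in control sham mice (log2 difference -0.32, SE 0.09, adjusted p = 0.997, limma). Its groups did not overlap, its other probe set gave 0.05, and in CCI medulla the first gave 0.14. Of the list 3 genes had that p without KO array 3, 3 without control array 4 and 2 without both. Sgk1, a kinase that regulates ion transport, gave -0.37 and Per1, counted in both lists, -0.30, while Angptl4, an inhibitor of lipoprotein lipase, gave 0.45 and Cdkn1a, a cell cycle inhibitor, gave 0.38. Heat shock and unfolded protein genes had 2 of 28, Pdia6 and Hspa5 (0.23), a chaperone of the endoplasmic reticulum, and oxidative phosphorylation genes had 0 of 36, with differences between -0.15 and 0.07.

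**Figure D5:**
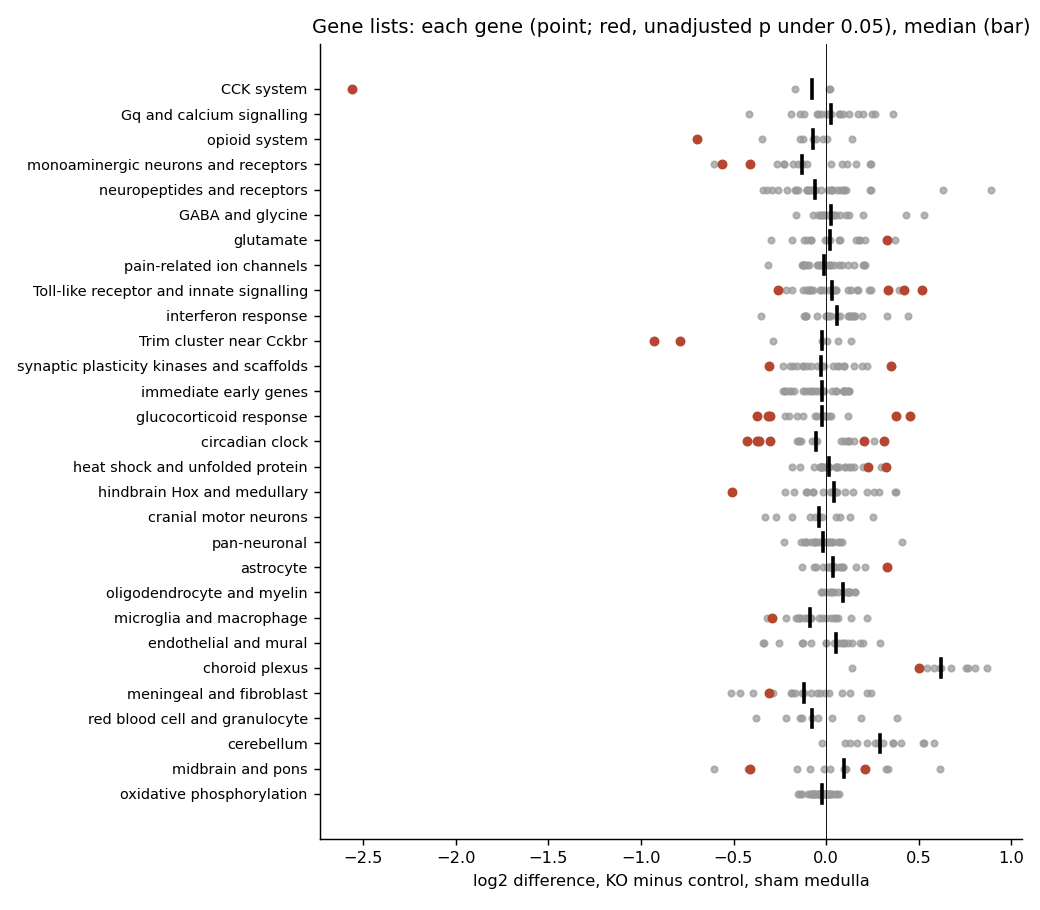
Log2 difference, KO minus control, of each gene of 29 lists in sham medulla (horizontal axis), with red points at an unadjusted p under 0.05 and a bar at the median of the list. Medians lie between -0.13 and 0.10 except for the cerebellum (0.29) and choroid plexus (0.62) lists.

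Leaving out single arrays that stood apart moved the medians of the choroid plexus and cerebellum lists. The choroid plexus list had a median of 0.62 and all 11 genes on the higher side. Its median was 0.18 without control array 4, 0.94 without KO array 3 and 0.61 without both. The same list had a median of -0.73 in CCI medulla. In sham medulla the cerebellum list had a median of 0.29, and it was -0.11 without KO array 3, 0.26 without control array 4 and -0.18 without both. Their summed levels overlapped between genotypes, from 7583 to 11800 units in KO and from 1460 to 10916 in control mice for choroid plexus, and none of the genes of either list passed. Pan-neuronal genes summed to between 49242 and 55289 units in KO and between 53081 and 54980 in control mice, with 0 of 24 at an unadjusted p under 0.05. The 17 oligodendrocyte and myelin genes had 0 at that p and a median of 0.09, the 20 astrocyte genes had 1 (Slc1a3), and the 22 microglia and macrophage genes had 1, the complement gene C1qc. C1qc read 294, 309, 246 and 298 units in KO sham mice, against 461, 313, 351 and 309 in control sham mice (log2 difference -0.29, unadjusted p = 0.0272, limma). The meningeal and fibroblast list had 1 of 19 (Col1a1, -0.31), the endothelial and mural list 0 of 18, the red blood cell and granulocyte list 0 of 9 and the cranial motor neuron list 0 of 11. Hindbrain Hox and medullary genes had 1 of 20, Lmx1b, a factor of serotonin neurons, at -0.51, with KO array 3 at 0.23 units. Midbrain and pons genes had 2 of 15, Th and Foxa1, and synaptic plasticity kinases and scaffolds had 2 of 22, Homer2 (-0.31) and Camkk2 (0.35). Without KO array 3 the counts of the Hox, midbrain and pons, plasticity, microglia, meningeal, astrocyte and glutamate lists were each 0, and Camkk2 gave 0.18. Some counts rose instead. Without control array 4 the meningeal list had 3, and the neuropeptide and interferon response lists had 2 each. Without KO array 3 the endothelial and mural list had 2. Without both arrays the oligodendrocyte and myelin list had 3. The part of these markers in the small differences above was not tested.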

How the data were processed

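The deposited values are linear probe set intensities, some below 0, with similar medians on all arrays. The authors' software and normalization are not given in the sources used here. Total RNA was extracted with Trizol and labelled as biotinylated cRNA, per the labels' protocols. The 64 AFFX control probe sets were left out. Negative intensities were set to 0, 16 was added and log2 was taken. All 32 arrays of both regions were quantile normalized together, and the 16 medulla arrays were then taken for the fit. A linear model with 4 group means was fitted with limma 3.58.1 (R 4.3.3; lmFit, eBayes), and p-values were adjusted by Benjamini and Hochberg over 22626 probe sets. The script was tested on simulated data. Single values had an exact two-sided permutation test.

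Gene symbols came from the platform annotation (1 symbol for 20380 probe sets, several for 691, none for 1555), and chromosomes and gene order from RefSeq GRCm38.p6 (20351 matched). The brightest probe set stood for a gene in lists. Of 633 listed entries 532 were measured. Named genes were those past the threshold, the 12 per direction of smallest p with a group mean of at least 50 and no overlap, the cholecystokinin genes, up to 3 per list, up to 10 neighbours of Cckbr among 100 genes on each side, and their other probe sets. Members and lists were chosen with earlier results of these data known. The title number did not pair the samples: residuals of same-numbered arrays correlated at -0.039 to 0.13. No arrays were identical (0 pairs). Alternatives concerned normalization, pseudocount, dim probe sets, variance model, array weights, array code, blocks, probe sets per gene and omitted arrays.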

Additional observations from a re-analysis of the deposited data

Results flagged for a closer look

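Of 162 groups of 4 values that were looked at, 13 (8.02%) had a sample far from the other 3, where chance gives about 1 in 20. Pdia6 on control sham array 3 read 365 units, against 315 to 322 on the other control arrays, Hspa5 read 1700 on the same array, against 1340 to 1400, and Klk1b8 read 44, against 59.9 to 62.5. Cckar on KO sham array 4 read 16.1 units, against 20.2 to 20.6, and Foxa1 on control sham array 1 read -0.819 units, against 3.21 to 3.79, both at or near background.

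Among summed list intensities, KO sham array 3 was highest for the cerebellum list (14652 units, against 6224 to 7012), for GABA and glycine genes (12462, against 9706 to 10174) and for glutamate genes (9769, against 8268 to 8370). KO sham array 2 was highest for oligodendrocyte and myelin genes (36952, against 33590 to 33924), and KO sham array 1 for opioid genes (1775, against 1739 to 1742). Control sham array 1 was highest for neuropeptides and receptors (6559, against 5065 to 5306) and lowest for clock genes (5790, against 6287 to 6370) and for endothelial and mural genes (4840, against 5124 to 5170).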

How the results depend on the processing

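The count of 3 probe sets past the threshold was 5 with a pseudocount of 64 or without the dimmest 33.3% of probe sets (both added Dctn5 and a second Pgap2 probe set), 1 with only the 8 sham arrays, 1 when the array code (3 levels) entered as a block, 1 without both KO sham 3 and control sham 4, and 0 within the lower and 0 within the higher array code. Within these codes Cckbr gave -2.69 (adjusted p = 0.0914, limma) and -2.42 (0.403). With the replicate block of the title number the count was 3 and Cckbr gave -2.56, and no call changed. Leaving out single arrays gave counts of 1 to 6, with 1 without control sham 1 or 4, 5 without KO sham 1 or 2 and 6 without KO sham 4. The interaction with operation then had 0 to 1 (Cps1 without control CCI 3, Nepro without KO sham 1) and that with region 0 to 1 (Nepro without KO sham 1). Pgap2 lost its call in 8 settings and Iqgap1 in 9. Among them were the 8 sham arrays alone (adjusted p = 0.227 and 0.233, limma), the code block of 3 levels (0.0895 and 0.0767) and the omission of control sham 1 (0.0664 for each). With only 2 levels of that code, lower and higher, both kept their calls (adjusted p = 0.0169 and 0.00985, limma). The count was then 4, with a second Pgap2 probe set. Among the named probe sets, sign changes were seen for Gast and Cck, both near 0: Gast gave -0.0019 with median centring, -0.0056 with no further normalization, -0.37 with a pseudocount of 1, -0.042 with array weights, -0.070 with the code block, -0.090 within the lower code, -0.17 to 0.25 without single arrays (below 0 without control 1, control 4, KO 2 or KO 3) and -0.29 without both arrays. Cck gave -0.23 within the lower code, -0.13 to 0.16 without single arrays (below 0 without control 3, control 4, KO 1 or KO 3) and -0.098 without both. Of 1608 other values of 51 named probe sets 1568 kept sign and side. Without KO sham 3 the medians of the cerebellum, Gq (-0.05), GABA and glycine (-0.023) and Hox (-0.032) lists were below 0. Of 290 list medians 288 moved by less than the spread between arrays of a genotype. That spread was taken with the omitted arrays included, which widens it where such an array stood apart. The cerebellum median thus counted among the 288, although it went from 0.29 to -0.11 without KO sham 3. The CCK system (-0.32) and Trim cluster (-0.17) medians moved by more than that spread without both arrays. The causes were not tested. Dim genes are limited by background.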
